A study of Mus musculus with 10 samples.

Results

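Interferon response genes are the genes that cells switch on when interferons, secreted antiviral signals, bind their receptors. A list of 43 such genes was matched by symbol to a table of 47729 genes measured in mouse liver, and all 43 were found. The livers came from female mice of 2 genotypes, 5 samples with a full-body knockout of Etnppl (KO) and 5 wild-type samples (WT). Etnppl encodes an enzyme that breaks down phosphoethanolamine. All mice ate standard chow for 8 weeks, followed by 10 weeks on a high-fat diet in which fat supplied 45% of the energy, so every library comes from a fat-fed liver. No source used here gives the strain of the mice or which part of Etnppl was deleted. The values are FPKM, sequenced fragments scaled to transcript length and library depth, from 1 library of poly(A)-selected RNA per sample. Samples carry a replicate number within each genotype but are not stated to be separate animals, so the tests below weigh differences against the spread between libraries only. Values of single libraries are given in the order of replicates 1 to 5.

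Type I interferons act through the receptor chains Ifnar1 and Ifnar2 and the kinases Jak1 and Tyk2 on a transcription factor complex that includes Stat2 and Irf9 and binds the interferon-stimulated response element, ISRE. Interferon gamma acts through Ifngr1 and Ifngr2 and the kinases Jak1 and Jak2, and its target genes are known for the gamma-activated site, GAS. The first route is known for antiviral genes such as Isg15, the Ifit genes and the Oas genes. The second is known for Irf1, for guanylate-binding proteins (Gbp genes) and immunity-related GTPases such as Irgm2 and Iigp1, and for the antigen-processing genes Psmb8, Psmb9 and Tap1, although many genes answer to both. In liver, hepatocytes and resident macrophages are both known to respond to interferons.

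The libraries held 21000000 to 27900000 fragments, as estimated from the steps between low FPKM values. Etnppl lay at 27.6 to 56.6 FPKM in WT and 7.36 to 10.2 FPKM in KO, with no overlap, as the labels have it. The hepatocyte gene Alb lay between 35219 and 47252 FPKM over the 10 libraries. Of 8 listed hepatocyte markers 7 were found by symbol, and none of these was at 0. KO replicate 3 stood apart in one respect, since 6 pancreas genes together reached 109 FPKM there against 2.17 to 3.19 FPKM in the other 9 libraries. In bulk tissue, fewer cells of a type and less RNA per cell cannot be told apart.

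None of the 43 interferon response genes passed the test between the genotypes. That test, limma on log2(FPKM + 0.5) over 12395 genes with an adjusted p under 0.05, called 0.0645% of all genes tested (0.0323% higher and 0.0323% lower in KO). The lowest adjusted p among the members was 0.178, for Iigp1. All 43 members had a mean of at least 0.5 FPKM and entered the test. In every one the range of the 5 KO libraries overlapped that of the 5 WT libraries, beside 2.79% of all genes tested with separate ranges. At that share a list of 43 genes would often hold few or none, so the count does not set the members apart. The members' median log2 fold change (KO minus WT) was -0.084, against a median of -0.05 over all genes tested. Of the members, 35 were lower and 8 higher in KO, beside 65.1% of all genes tested that were lower. All 7 hepatocyte markers were higher in KO, by log2 fold changes of 0.015 to 0.28, none past the test, and their part in the members' values was not tested. At an unadjusted limma p under 0.05 there were 3 members lower, Iigp1, Irgm2 and Irf1, and 0 higher, or 6.98% of members, a share no larger than the 9.07% of all genes that were lower at that level (2.69% were higher). With median-of-ratios scaling, which removes the shift of the median gene, 26 of 43 members were lower, the members' median was -0.028, and all genes at that level split into 669 higher and 599 lower.

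A p above the threshold does not show that the genotypes were equal, so the width of each interval matters. The 95% confidence interval (CI) lay within a 1.5-fold change in both directions for 35 of the 43 members, and for 85.9% of all genes tested. The members were measured with 58 or more fragments in every library, the fewest in Oas3, as estimated from its FPKM, transcript length and library depth. Within that picture the roles differed in their values. The 8 GTPases and 3 antigen-processing genes were all lower in KO, with a median log2 fold change of -0.27, and the other 32 members had a median of -0.032, with 24 lower and 8 higher. The direction of these 32 depended on the setting, with a median of 0.022 and 15 lower under median-of-ratios scaling, 0.016 and 15 lower under quantile normalization, 0.0029 and 16 lower without KO replicate 1, and -0.14 and 28 lower without KO replicate 3. The 11 genes kept a median of -0.39 to -0.21 in those and all other settings tried. The 95% CI lay within a 1.5-fold change for only 6 of these 11 genes and for 29 of the 32 others. These 2 sets were joined from the role groups after the values had been seen, and the difference between them was not tested.

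**Figure D1:**
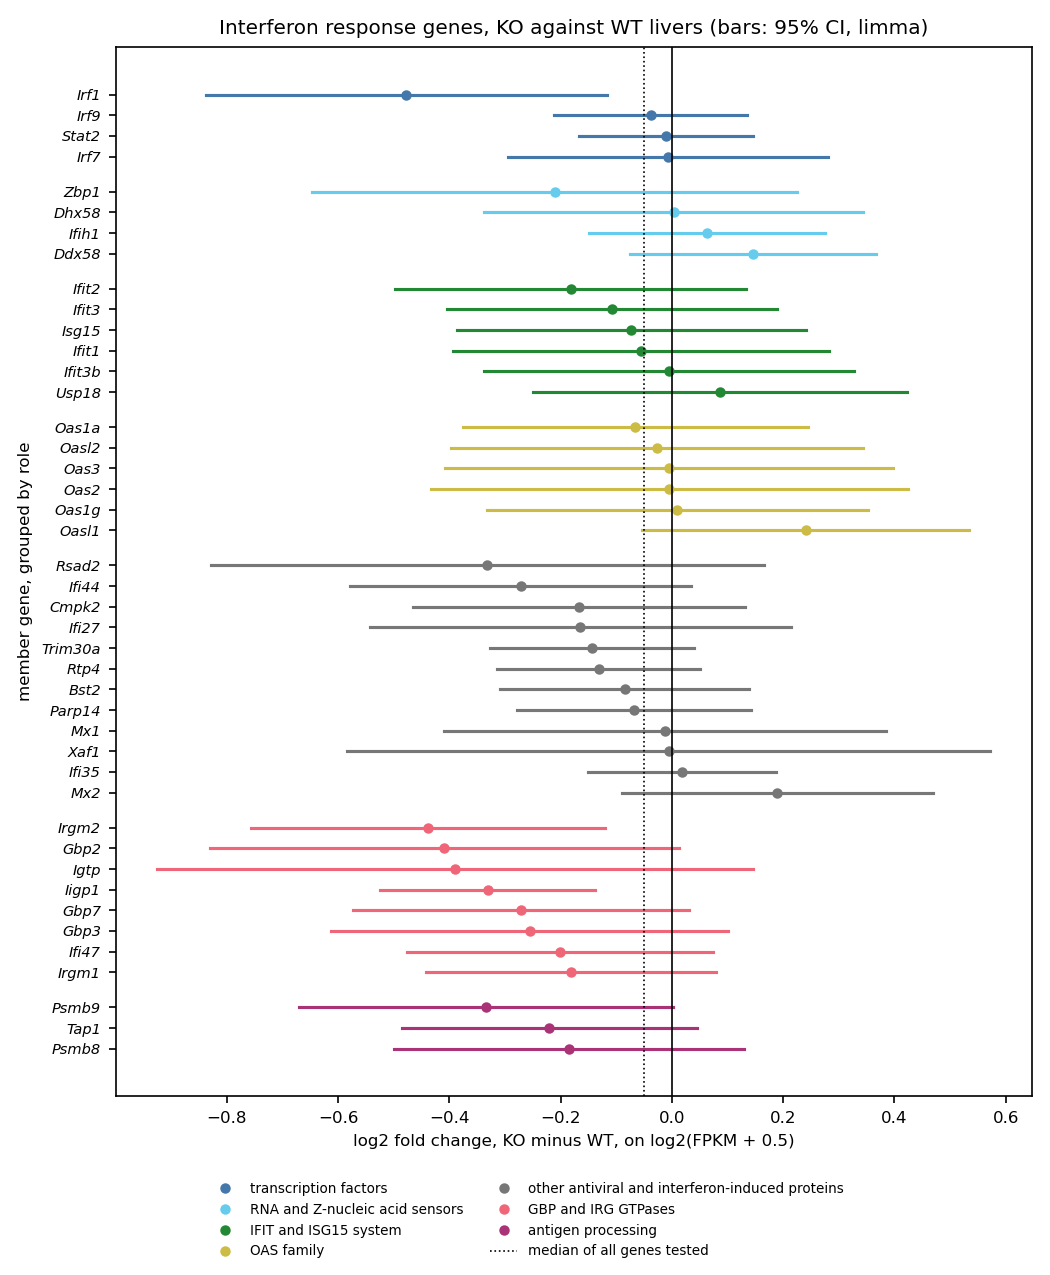
Log2 fold change (KO minus WT, on log2(FPKM + 0.5)) of each of the 43 members, with 95% CI bars from limma, grouped by role. All 11 GTPase and antigen-processing genes lie left of 0, most other members lie near the dotted line at -0.05, the median of all genes tested, and no member passed an adjusted p of 0.05.

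Sequences before the start of 7 members from both sets are shown here because their known regulators bind the ISRE and the GAS, whose letters can be looked for. Windows from RefSeq (build GRCm38.p6, from 250 bases before to 50 after each start) were found for 33 of the 43 members. The ISRE was searched as GAAA, then 2 bases of any kind, then GAAA, and the GAS as TTCNNNGAA, on both strands. The ISRE letters were in a window of 19 of the 33 members (57.6%), beside 3.99% of all 27025 genes with a window. The GAS letters were in a window of 9 of the 33 (27.3%), beside 9.55% of all genes. Among the 10 GTPase and antigen-processing genes with a window, 6 had the ISRE letters and 4 the GAS letters. The ISRE letters were in 6 of the 7 GTPases and 0 of the 3 antigen-processing genes, and the GAS letters in 3 and 1. Among the 23 other members with a window, 13 had the ISRE letters and 5 the GAS letters. A match is a description of the letters and not a measured binding site. The 7 members shown all hold a match, and their 3 GTPases are the only 3 with the GAS letters. Members with no match in their window, such as Psmb9, Tap1 and Irf7, are not shown. The 7 therefore do not stand for the share of matches among the members. The 200 bases directly before the start follow, 5′ to 3′ along the gene, with matches in capitals, and in these windows no ISRE match overlapped a GAS match.
Isg15: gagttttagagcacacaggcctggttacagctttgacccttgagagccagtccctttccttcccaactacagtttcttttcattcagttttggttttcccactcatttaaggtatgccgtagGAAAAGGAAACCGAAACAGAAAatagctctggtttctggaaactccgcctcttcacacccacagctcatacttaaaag
Ifit3: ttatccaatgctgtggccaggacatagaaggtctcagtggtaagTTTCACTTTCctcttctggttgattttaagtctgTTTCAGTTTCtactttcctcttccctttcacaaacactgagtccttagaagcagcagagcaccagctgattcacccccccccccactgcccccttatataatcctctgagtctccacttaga
Oas1a: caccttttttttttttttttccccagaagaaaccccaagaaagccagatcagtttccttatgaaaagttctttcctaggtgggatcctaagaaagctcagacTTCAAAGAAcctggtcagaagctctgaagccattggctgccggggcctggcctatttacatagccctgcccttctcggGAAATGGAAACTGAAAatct
Irf1: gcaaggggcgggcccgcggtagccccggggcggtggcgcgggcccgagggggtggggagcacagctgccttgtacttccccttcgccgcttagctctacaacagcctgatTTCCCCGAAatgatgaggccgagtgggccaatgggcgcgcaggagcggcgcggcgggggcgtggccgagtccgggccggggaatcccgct
Gbp7: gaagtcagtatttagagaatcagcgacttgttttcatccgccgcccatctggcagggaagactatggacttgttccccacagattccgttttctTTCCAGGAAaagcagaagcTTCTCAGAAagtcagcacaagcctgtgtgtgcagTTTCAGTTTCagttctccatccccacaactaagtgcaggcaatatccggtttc
Igtp: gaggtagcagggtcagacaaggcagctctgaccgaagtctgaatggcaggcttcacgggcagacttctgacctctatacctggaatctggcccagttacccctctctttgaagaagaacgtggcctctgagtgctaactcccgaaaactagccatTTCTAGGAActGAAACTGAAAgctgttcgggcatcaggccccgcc
Irgm2: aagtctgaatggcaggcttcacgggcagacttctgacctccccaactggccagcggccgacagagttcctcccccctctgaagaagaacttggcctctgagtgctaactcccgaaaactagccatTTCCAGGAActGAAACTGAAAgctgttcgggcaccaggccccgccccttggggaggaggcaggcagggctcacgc
The windows lie at chr4:156200819-156201018 (minus strand), chr19:34583329-34583528 (plus strand), chr5:120907526-120907725 (minus strand), chr11:53769814-53770013 (plus strand), chr3:142530136-142530335 (plus strand), chr11:58199356-58199555 (plus strand) and chr11:58214777-58214976 (plus strand). In the bases shown, Isg15 has 3 overlapping ISRE matches, the first at -78 from the start, and Ifit3 has 2, the first at -156, with the GAS letters in neither. Irf1 has 1 GAS match, at -90, and no ISRE match. Oas1a has 2 overlapping ISRE matches and 1 GAS match farther from the start. Gbp7 has 2 GAS matches and 1 ISRE match. In Igtp and Irgm2, 2 related GTPase genes on chromosome 11, a GAS match stands just before an ISRE match, at -45 and -34 in Igtp and at -75 and -64 in Irgm2.

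Of the 4 transcription factors, Stat2, Irf9 and Irf7 had log2 fold changes close to 0, and Irf1 had the most negative one of all 43 members, without passing the test. Stat2 (ENSMUSG00000040033, chromosome 10, 128270559 to 128292849, plus strand, GRCm38) was at 12.8, 13.9, 12.6, 13.6 and 13.7 FPKM in the 5 WT libraries and 11.6, 13.6, 14.0, 12.7 and 14.4 FPKM in the 5 KO libraries. Its groups overlapped almost fully, with a log2 fold change of -0.011 (95% CI -0.17 to 0.15). Irf9, the DNA-binding subunit, was at 24.8 ± 1.28 FPKM in WT against 24.2 ± 2.83 FPKM in KO (mean ± SD, n = 5 each here and below). Irf7, a factor that amplifies the type I response, was at 43.5, 38.0, 41.8, 38.3 and 35.1 FPKM in the 5 WT libraries and 31.6, 45.8, 50.4, 41.1 and 30.3 FPKM in the 5 KO libraries. Its WT values stayed close together, while KO replicates 3 and 2 lay above every WT library and KO replicates 1 and 5 below every one (log2 fold change -0.0068, 95% CI -0.29 to 0.28). The KO mean of Irf7 in FPKM was 101% of the WT mean although its log2 change was just below 0.

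Irf1 (ENSMUSG00000018899, chromosome 11, 53770014 to 53778374, plus strand), an early target of interferon gamma, was at 13.7, 17.8, 11.8, 20.8 and 17.3 FPKM in the 5 WT libraries and 8.77, 13.8, 10.8, 9.84 and 14.3 FPKM in the 5 KO libraries. The 3 highest values were WT and the 3 lowest KO, with WT replicates 1 and 3 inside the KO range. Its log2 fold change was -0.48 (95% CI -0.84 to -0.12, adjusted p = 0.271).

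The sensors that detect viral nucleic acids had no common direction, with 3 higher and 1 lower in KO by log2 fold change and none past the test. Dhx58 counts as higher at a log2 fold change of only 0.0032, although its KO mean in FPKM was the lower. Ddx58, which encodes RIG-I, a sensor of viral RNA ends, was at 13.7 ± 1.18 FPKM in WT against 15.3 ± 2.47 FPKM in KO, a log2 fold change of 0.15 (95% CI -0.075 to 0.37). Ifih1, which encodes MDA5, a sensor of long double-stranded RNA, was at 9.25 ± 0.740 and 9.73 ± 1.35 FPKM, and Dhx58, a relative that modulates both sensors, at 8.84 ± 2.01 and 8.79 ± 1.60 FPKM. Zbp1, a sensor of Z-form nucleic acids, varied within each genotype, at 8.22 to 15.3 FPKM across WT and 6.96 to 13.2 FPKM across KO (log2 fold change -0.21, 95% CI -0.65 to 0.23).

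The Ifit genes, whose products bind foreign RNA, and Isg15, a ubiquitin-like modifier, had log2 fold changes of -0.18 to 0.086, with 5 of the 6 genes of this group lower in KO and none past the test. KO replicate 3 was the highest of the 10 libraries in all 6. Isg15 (ENSMUSG00000035692, chromosome 4, 156199424 to 156200818, minus strand) was at 21.2, 23.1, 23.2, 22.2 and 21.5 FPKM in the 5 WT libraries and 15.0, 22.8, 30.8, 20.8 and 18.9 FPKM in the 5 KO libraries. Its WT values were tight, and the KO libraries held both the highest value, in replicate 3, and the lowest, in replicate 1 (log2 fold change -0.073, 95% CI -0.39 to 0.24, adjusted p = 0.877). Ifit3 was at 21.7, 24.0, 23.6, 20.2 and 17.2 FPKM in the 5 WT libraries and 16.3, 23.7, 25.7, 16.7 and 17.5 FPKM in the 5 KO libraries, with KO replicate 3 highest and KO replicate 1 lowest. Ifit1 was at 14.4 ± 1.81 FPKM in WT against 14.1 ± 3.91 FPKM in KO (log2 fold change -0.055). Usp18, which removes Isg15 from proteins and damps receptor signalling, was at 12.4 to 19.8 and 13.5 to 23.5 FPKM in WT and KO (log2 fold change 0.086). Ifit2 had the most negative log2 change of the group, -0.18 (95% CI -0.50 to 0.13), at 2.64 to 3.23 FPKM across WT and 1.90 to 3.84 FPKM across KO. Ifit3b was at 5.77 ± 1.20 and 5.73 ± 1.16 FPKM. Since 51.2% of the distinct runs of 50 bases in the Ifit3 transcript also occur in Ifit3b, how reads were split between these copies is uncertain.

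The Oas genes encode enzymes that sense double-stranded RNA and, for most members, make a messenger that activates the RNA-degrading RNase L. The family had no common direction, with 4 members lower and 2 higher and a median log2 fold change of -0.0048. Oasl1, a relative without that enzyme activity, was at 10.6, 8.13, 12.9, 9.41 and 9.16 FPKM in the 5 WT libraries and 9.87, 13.1, 14.7, 9.80 and 12.3 FPKM in the 5 KO libraries. It had the largest positive log2 change of the 43 members, 0.24 (95% CI -0.053 to 0.53), with KO replicates 3 and 2 highest and WT replicate 3 next. Oas1g was at 2.77, 2.57, 2.09, 2.49 and 1.79 FPKM in the 5 WT libraries and 2.26, 2.09, 3.71, 2.04 and 1.91 FPKM in the 5 KO libraries, and KO replicate 3 lay above every other library. Oas2 and Oas3 were at 2.78 ± 0.845 and 2.78 ± 0.813 FPKM and at 1.08 ± 0.188 and 1.12 ± 0.490 FPKM, and Oasl2 at 8.23 ± 1.45 and 8.20 ± 2.16 FPKM in WT and KO respectively. Oas3 counts as lower by its log2 fold change of -0.0048, although its KO mean in FPKM was the higher. Oas1a was at 2.43 to 4.32 FPKM across WT and 2.46 to 3.93 FPKM across KO, and it shares 57.6% of its runs of 50 bases with Oas1g, so the split of reads between that pair is uncertain.

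The 12 further antiviral and interferon-induced genes ranged in log2 fold change from -0.33 to 0.19, with 10 lower and 2 higher in KO and none past the test. Rsad2, which encodes viperin, an enzyme that makes a chain-terminating nucleotide, was at 10.7, 13.1, 11.4, 6.78 and 6.38 FPKM in the 5 WT libraries and 7.11, 7.53, 11.5, 5.77 and 5.75 FPKM in the 5 KO libraries. Its WT libraries split, with replicates 1 to 3 high and replicates 4 and 5 lower, and KO replicate 3 was at the level of the former (log2 fold change -0.33, 95% CI -0.83 to 0.17). Cmpk2, the neighbour of Rsad2 on chromosome 12 and a nucleotide kinase, was at 5.71 ± 1.06 FPKM in WT against 5.02 ± 0.921 FPKM in KO. Ifi27 and Bst2 had the highest levels of this group per transcript length. Ifi27, an interferon-induced membrane protein, was at 135 ± 21.5 and 122 ± 32.1 FPKM (log2 fold change -0.16, or -0.031 without KO replicate 1, -0.091 without WT replicate 4 and -0.28 without KO replicate 3), and Bst2, which tethers budding virus to the cell surface, at 118 ± 8.43 and 113 ± 18.7 FPKM. The Mx genes encode antiviral GTPases of the dynamin family. Mx1 was at 1.51 ± 0.413 and 1.51 ± 0.497 FPKM and Mx2 at 4.26 ± 0.617 and 4.95 ± 0.930 FPKM, with log2 fold changes of -0.012 and 0.19.

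Xaf1, an interferon-induced regulator of cell death, spread more widely in KO than in WT, at 5.71 to 7.77 FPKM across WT and 3.20 to 11.4 FPKM across KO (log2 fold change -0.006, 95% CI -0.58 to 0.57). KO replicate 3 held its highest value and KO replicate 5 its lowest. Ifi44 was at 4.80 ± 0.804 FPKM in WT against 3.91 ± 0.889 FPKM in KO (log2 fold change -0.27, adjusted p = 0.471). Ifi35, an interferon-induced leucine zipper protein, was at 19.1 ± 1.11 and 19.4 ± 1.98 FPKM, and Rtp4, a chaperone of membrane receptors, at 13.5 ± 0.903 and 12.3 ± 1.39 FPKM. Parp14, an ADP-ribosyltransferase, was at 7.09 ± 0.523 and 6.78 ± 0.998 FPKM and Trim30a, a regulator of inflammatory signalling, at 5.94 ± 0.538 and 5.33 ± 0.443 FPKM.

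**Figure D2:**
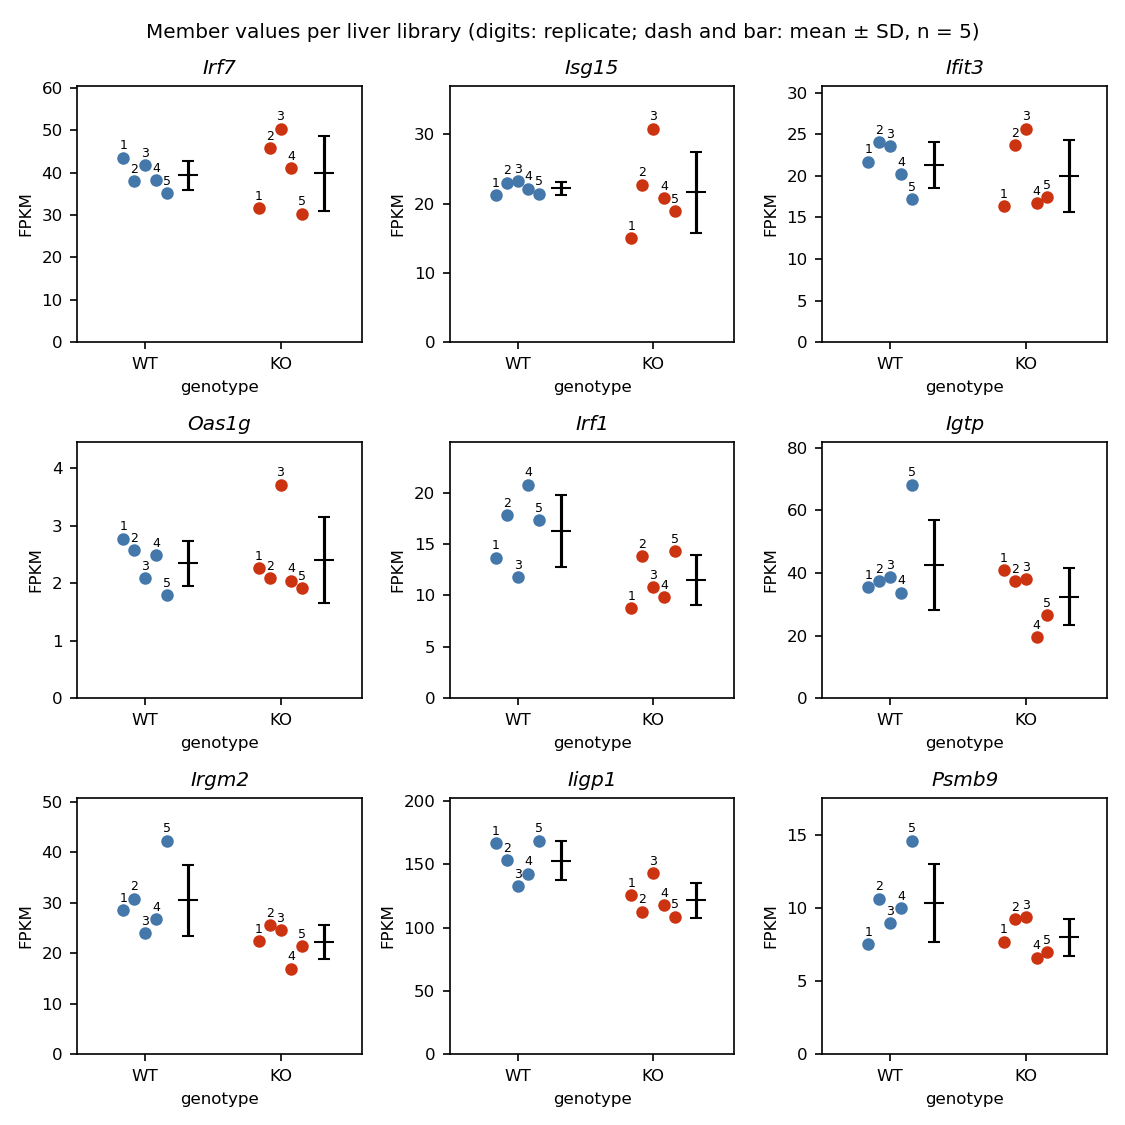
FPKM of 9 members in each library (points, labelled by replicate number), with the mean ± SD of each genotype (n = 5). KO replicate 3 is the highest library for Irf7, Isg15, Ifit3 and Oas1g, WT replicate 5 is the highest for Igtp, Irgm2, Iigp1 and Psmb9, and the 2 genotypes overlap in every panel.

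The GTPases of the Gbp and immunity-related families, some of which attack the membranes around intracellular microbes, were lower in KO in all 8 members, by a log2 fold change of -0.44 to -0.18. Iigp1 (ENSMUSG00000054072, chromosome 18, 60376027 to 60392634, plus strand) and Ifi27 had the highest mean FPKM, a level per transcript length, of the 43 members. It was at 166, 153, 133, 143 and 169 FPKM in the 5 WT libraries and 125, 112, 143, 118 and 109 FPKM in the 5 KO libraries. WT replicates 1, 2 and 5 lay above every KO library, and KO replicate 3 was the only KO library above WT replicates 3 and 4 (log2 fold change -0.33, 95% CI -0.52 to -0.14, adjusted p = 0.178). The KO mean was 79.5% of the WT mean.

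Irgm2 (ENSMUSG00000069874, chromosome 11, 58199618 to 58222782, plus strand), a regulatory member of the immunity-related family, was at 28.6, 30.8, 24.1, 26.8 and 42.3 FPKM in the 5 WT libraries and 22.4, 25.6, 24.6, 16.9 and 21.4 FPKM in the 5 KO libraries. WT replicate 5 was the highest and KO replicate 4 the lowest, and WT replicate 3 lay within the KO range (log2 fold change -0.44, 95% CI -0.76 to -0.12, adjusted p = 0.255). Igtp, a second regulatory member, was at 35.4, 37.4, 38.7, 33.7 and 68.2 FPKM in the 5 WT libraries and 40.9, 37.3, 37.9, 19.5 and 26.5 FPKM in the 5 KO libraries. WT replicate 5 stood far above the rest, and KO replicate 1 was the second highest (log2 fold change -0.39, 95% CI -0.93 to 0.15). The log2 fold change of Igtp was -0.21 without WT replicate 5 and -0.22 without KO replicate 4, and that of Irgm1 went from -0.18 to -0.11 and -0.096 without the same libraries. For Ifi47 it went from -0.20 to -0.12 without WT replicate 5 and -0.13 without WT replicate 2. Irgm1 was at 53.7 ± 7.78 FPKM in WT against 47.4 ± 7.30 FPKM in KO, and Ifi47, another GTPase of the family, at 15.2 ± 3.18 and 13.0 ± 1.45 FPKM. An exon part of 162 bases is shared by Igtp and Irgm2 on the same strand.

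Gbp2 was at 5.84, 12.2, 7.19, 6.61 and 9.68 FPKM in the 5 WT libraries and 6.31, 6.30, 7.97, 5.01 and 4.54 FPKM in the 5 KO libraries, with WT replicates 2 and 5 highest and KO replicates 5 and 4 lowest (log2 fold change -0.41, 95% CI -0.83 to 0.013, adjusted p = 0.435). Gbp7 was at 6.19 ± 1.06 FPKM in WT against 5.07 ± 1.12 FPKM in KO and Gbp3 at 11.2 ± 0.964 and 9.57 ± 2.83 FPKM, with log2 fold changes of -0.27 and -0.26. For Gbp3 the single highest library was KO replicate 3 and the lowest KO replicate 5, and its log2 fold change was -0.40 without the former and -0.11 without the latter. That of Gbp2 was -0.26 without WT replicate 2.

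The 3 antigen-processing genes were lower in KO as well, none past the test. Psmb9, a catalytic subunit of the immunoproteasome, was at 7.54, 10.7, 8.96, 10.0 and 14.6 FPKM in the 5 WT libraries and 7.71, 9.25, 9.40, 6.61 and 7.0 FPKM in the 5 KO libraries. WT replicate 5 was highest, and WT replicates 1 and 3 lay within the KO range (log2 fold change -0.33, 95% CI -0.67 to 0.0016, adjusted p = 0.426). Psmb8, its companion subunit, was at 23.6 ± 3.67 FPKM in WT against 20.9 ± 4.47 FPKM in KO, and Tap1, a chain of the peptide transporter that loads MHC class I, at 13.2 ± 1.92 and 11.3 ± 1.89 FPKM (log2 fold changes -0.19 and -0.22). Without WT replicate 5 the log2 fold change of Psmb9 was -0.21, and that of Psmb8 was -0.12 without WT replicate 2 and -0.079 without KO replicate 5. Psmb9 and Tap1 lie head to head on chromosome 17, and 212 bases of their exons overlap on opposite strands. No source used here says whether counting used strand, so reads from that stretch may have been shared between the 2 genes. Psmb8 shares 498 bases with Gm20496 on the opposite strand in the same way.

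The libraries that stood highest and lowest were partly shared by the 2 sets of members, whose orders were not compared by a test. Among the 32 members outside the GTPases and antigen processing, KO replicate 3 was above the mean of the 10 libraries in 31 and was the highest library in 18. KO replicate 1 was above the mean in only 1 and the lowest in 10, and KO replicate 5 was the lowest in 11. Such ranks were not counted over all genes, so they are not shown to be particular to the members. KO replicate 1 had the fewest genes at 1 FPKM or more (10873). Without it the median log2 fold change over all genes tested was -0.028, against -0.05 with all libraries. Among the 11 GTPase and antigen-processing genes, WT replicate 5 was above the mean in 11 and highest in 8, WT replicate 2 was above it in 10, and KO replicates 4 and 5 were above it in 0 and held all 11 of the lowest values. KO replicate 3 was above the mean in 10 of these 11 as well, and the highest KO library in 7. WT replicate 5 was the lowest WT library in 13 of the 32 other members.

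**Figure D3:**
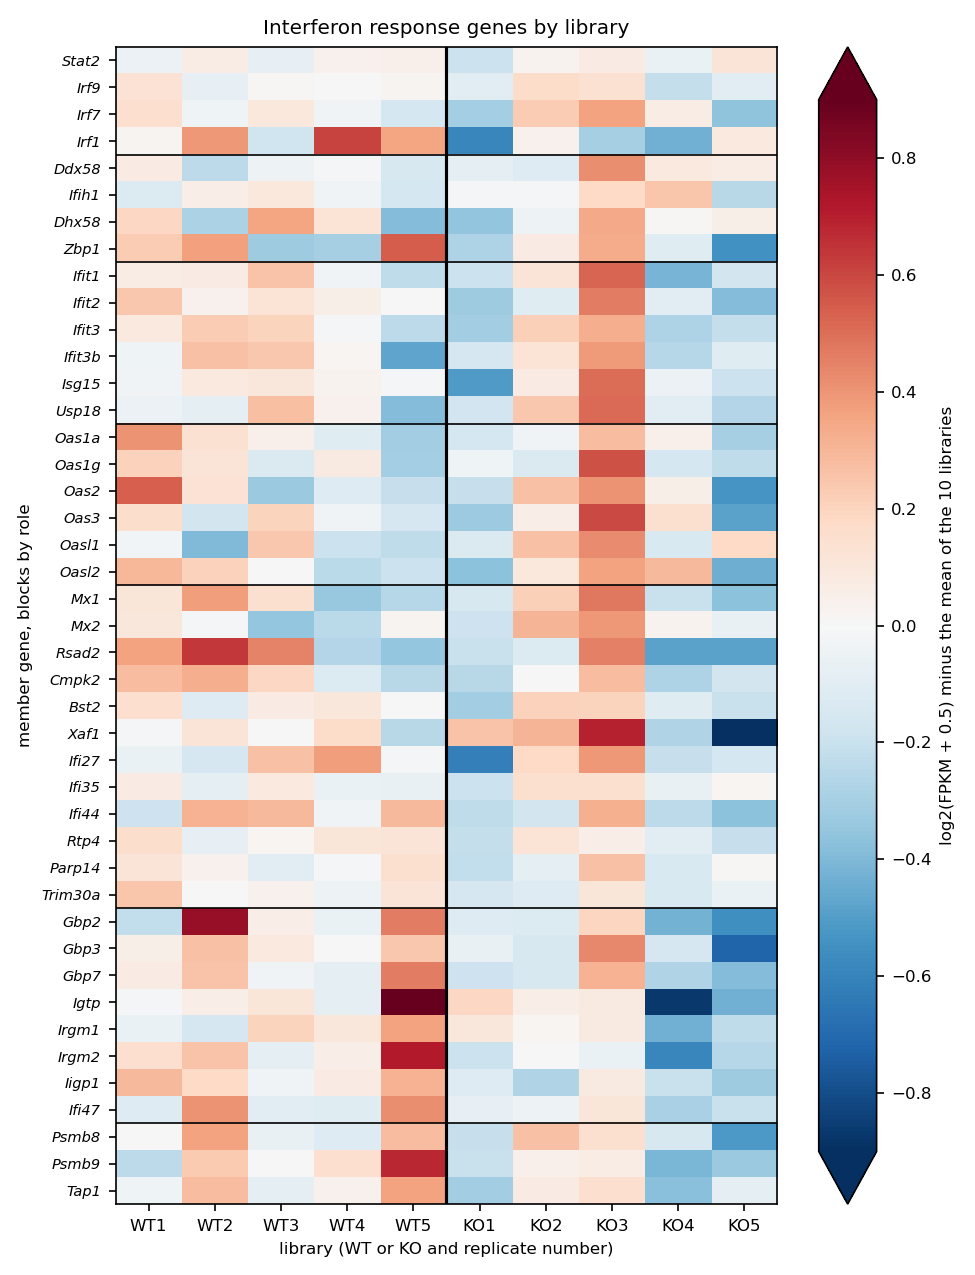
Log2(FPKM + 0.5) of the 43 members in each library, minus the mean of the 10 libraries (red above, blue below), with blocks by role and the genotypes divided by a line. KO replicate 3 is above the mean in 41 of 43 members, and WT replicate 5 is red through the 11 GTPase and antigen-processing genes at the bottom.

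The median over the 11 genes was 0.42 above the mean of the 10 libraries on the log2 scale in WT replicate 5, 0.26 in WT replicate 2 and 0.11 in KO replicate 3. It was -0.33 in KO replicate 5 and -0.38 in KO replicate 4. The summed level of 10 markers of recruited monocytes and dendritic cells was highest in the same 3 libraries and lowest in the same 2, and nearly all of it came from the MHC class II genes Cd74, H2-Aa and H2-Ab1, which are themselves known to answer to interferon gamma. The sum was 246 to 543 FPKM in WT and 200.2 to 329 FPKM in KO. It was highest in WT replicate 2 (543 FPKM), then in WT replicate 5 (353 FPKM) and KO replicate 3 (329 FPKM), and lowest in KO replicate 4 (215 FPKM) and KO replicate 5 (200.2 FPKM). Of these markers 6 could be tested, 5 were lower in KO, none passed, and none was at 0 in all libraries. In WT replicate 2 the class II genes were at 326 FPKM (Cd74), 112 FPKM (H2-Aa) and 97.5 FPKM (H2-Ab1). The other markers, named after their values were seen, were low and differed in their highest library. Ccr2 (1.04 FPKM), Itgax (0.76 FPKM), Xcr1 (0.26 FPKM) and Clec9a (1.81 FPKM) were highest in WT replicate 2, as the class II genes were. Ly6c2 was highest in KO replicate 3 (3.82 FPKM) and WT replicate 3 (3.79 FPKM), Cd209a in KO replicate 5 (0.81 FPKM) and Flt3 in WT replicate 4 (0.35 FPKM). The part of these markers in the GTPase values was not tested. The 16 lymphocyte markers summed to 7.58 to 18.5 FPKM in WT and 10.7 to 12.8 FPKM in KO, and the 12 Kupffer cell and macrophage markers to 442 to 615 and 394 to 571 FPKM.

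**Figure D4:**
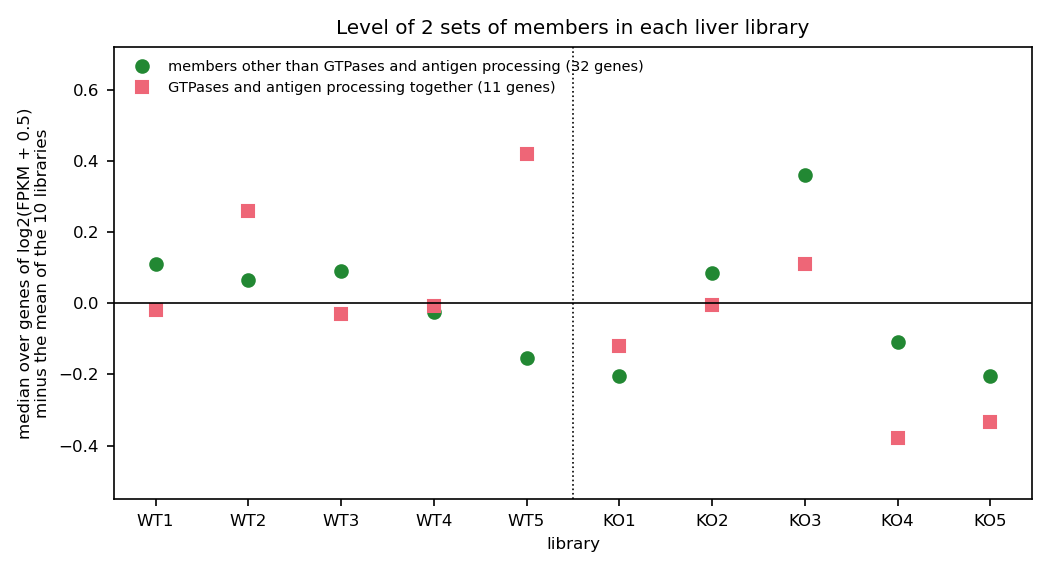
Median, over the 11 GTPase and antigen-processing genes (squares) and over the 32 other members (circles), of log2(FPKM + 0.5) minus the mean of the 10 libraries. WT replicate 5 has the highest square, at 0.42, and KO replicate 3 the highest circle, at 0.36, while KO replicates 4 and 5 have the lowest squares.

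KO replicate 3 weighed on the comparison. It was the highest KO library in 32 of the 43 members and the lowest in 0. Without it no member passed either (lowest adjusted p = 0.141, for Iigp1), but 12 members were lower at an unadjusted limma p under 0.05 in place of 3. That is 27.9% of members, beside 9.52% of all genes tested without that library. The library was singled out after its high values in the members were seen, and leaving out such a library lowers their KO values. The larger share is therefore no evidence of an excess among the members. The 12 were Irf1, Ifit2, Rsad2, Ifi44, Trim30a, Gbp2, Gbp3, Gbp7, Irgm2, Iigp1, Psmb9 and Tap1, of which 7 are GTPase or antigen-processing genes. The members' median log2 fold change was then -0.19. This library is also the one with pancreas transcripts, and their part in its interferon gene values was not tested. Its 12 Kupffer cell and macrophage markers summed to 571 FPKM, the highest of the KO libraries, followed by 564 FPKM in replicate 2, 467 in replicate 4, 462 in replicate 5 and 394 in replicate 1. The medians of the 32 other members in those KO libraries were 0.36, 0.084, -0.11, -0.21 and -0.20, and WT replicate 5 was the lowest WT library by both measures. The order did not hold over all libraries. WT replicates 1 and 2 had larger marker sums than KO replicate 3, at 615 and 592 FPKM, but medians of only 0.11 and 0.065. WT replicate 3 had a smaller sum than WT replicate 4 (477 against 522 FPKM) but a higher median (0.090 against -0.025). The part of these cells in the members' values was not tested.

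The rest of the pathway was read from lists of 147 further genes, of which 117 entries in the table were tested and none passed. Of these, 87 were lower and 30 higher in KO, with a median log2 fold change of -0.085. At an unadjusted limma p under 0.05, 16 were lower and 0 higher, or 13.7% beside the 9.07% of all genes that were lower.

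Of 21 interferon ligand genes, 18 were listed at 0 in every library, Ifnb1 among them. Ifna7 was listed above 0 in 1 KO library, at 0.15 FPKM, and Ifnz in 1 WT library, at 0.03 FPKM. Ifng, the gene for interferon gamma, was at 0.04, 0.05, 0.17, 0.05 and 0.05 FPKM in WT and was listed at 0 in 4 KO libraries and at 0.04 FPKM in KO replicate 4. These values stand for about 8 fragments in all WT libraries together and 1 in KO, too few to compare.

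Of 11 receptor, kinase and STAT genes, 10 were tested, 8 were lower in KO and none passed. Ifnlr1, a chain of the interferon lambda receptor, was too low to test, at most 0.09 FPKM. Ifngr2, a chain of the interferon gamma receptor, was at 12.1, 10.3, 11.3, 16.6 and 15.7 FPKM in the 5 WT libraries and 6.64, 10.5, 10.1, 10.0 and 10.1 FPKM in the 5 KO libraries. KO replicate 1 was the lowest and only WT replicate 2 lay within the KO range (log2 fold change -0.45, 95% CI -0.78 to -0.13, adjusted p = 0.254). Its partner Ifngr1 was at 15.8 ± 1.26 FPKM in WT against 14.0 ± 1.18 FPKM in KO (log2 fold change -0.17). Ifnar1 was at 12.1 ± 0.977 and 10.4 ± 0.579 FPKM (log2 fold change -0.21, adjusted p = 0.267), whereas its partner Ifnar2 was at 73.5 ± 5.55 and 72.5 ± 4.44 FPKM (log2 fold change -0.019, 95% CI -0.17 to 0.13). Il10rb, shared by the lambda and interleukin-10 receptors, was at 6.97 ± 0.924 and 5.70 ± 0.668 FPKM (log2 fold change -0.27, adjusted p = 0.325).

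The kinases below these receptors had log2 fold changes of -0.18 for Jak2, -0.016 for Jak1 and 0.17 for Tyk2. Stat3, which also serves other cytokine receptors, was at 33.4 ± 4.68 FPKM in WT against 35.3 ± 4.58 FPKM in KO. Upstream of interferon production, 9 of 14 tested genes were lower in KO, and those of lowest p were Mavs, Tlr3 and Tmem173. Mavs, the mitochondrial adaptor of the RNA sensors, was at 37.7 ± 3.13 and 32.1 ± 4.12 FPKM (log2 fold change -0.23, adjusted p = 0.319), Tlr3, an endosomal RNA receptor, at 2.23 ± 0.312 and 1.80 ± 0.289 FPKM, and Tmem173, which encodes STING, at 1.86 ± 0.282 and 1.56 ± 0.183 FPKM. Of 16 negative regulators, 11 were lower in KO. Pias3, an inhibitor of STAT proteins, was at 4.73 ± 0.816 and 3.63 ± 0.702 FPKM, Socs3, a feedback inhibitor of cytokine receptors, at 5.97 ± 1.84 and 4.29 ± 1.11 FPKM, and the phosphatase gene Ptpn6 at 20.9 ± 2.43 and 18.7 ± 1.78 FPKM. Their lowest adjusted p was 0.365, for Pias3.

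Among the further interferon-induced genes, 52 of 64 tested entries were lower in KO, and the 3 of lowest p were Gm4951, Cd274 and Cxcl10. Gm4951, an interferon-inducible GTPase gene, was at 53.0, 47.5, 44.4, 50.5 and 54.4 FPKM in the 5 WT libraries and 41.6, 40.5, 40.1, 36.5 and 42.5 FPKM in the 5 KO libraries. Every KO library lay below every WT library, as in no other gene of these lists, beside the 2.79% of all genes tested with separate ranges (log2 fold change -0.31, 95% CI -0.46 to -0.16, adjusted p = 0.139). Cxcl10, a chemokine that draws T cells, was at 10.6, 19.5, 11.3, 9.18 and 8.62 FPKM in the 5 WT libraries and 7.23, 9.08, 8.69, 5.22 and 6.32 FPKM in the 5 KO libraries. WT replicate 2 was far the highest, and WT replicate 5 lay within the KO range (log2 fold change -0.62, 95% CI -1.08 to -0.16, adjusted p = 0.261). Cd274, the gene for the T-cell inhibitory ligand PD-L1, was at 2.0, 3.76, 1.72, 2.28 and 2.53 FPKM (WT) and 1.40, 1.57, 1.86, 1.37 and 1.45 FPKM (KO), in the same order, again highest in WT replicate 2 (log2 fold change -0.51, adjusted p = 0.228).

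The list also held 11 further GTPase genes (Gbp4, Gbp5, Gbp6, Gbp8 to Gbp11, Tgtp1, Tgtp2, Gvin1 and Gm4951), and each had 1 tested entry, lower in KO, by log2 fold changes of -0.46 to -0.075 and a median of -0.31. They were singled out after their values were seen, and 5 of them (45.5%) had an unadjusted limma p under 0.05, beside the 9.07% of all genes lower at that level. Because of that choice the larger share is no evidence of an excess among them. How far these related genes share reads with one another was not examined. Of 13 MHC class I and immunoproteasome genes, 7 were lower and 6 higher. B2m, the light chain of MHC class I, was at 1727 ± 80.5 and 1533 ± 173 FPKM (log2 fold change -0.18, adjusted p = 0.403), Psme2, an activator subunit of the proteasome, at 50.3 ± 4.76 and 43.9 ± 3.94 FPKM, and the class I gene H2-Q7 at 43.7 ± 7.44 and 50.1 ± 3.32 FPKM.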

How the data were processed

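Poly(A)-selected RNA of 10 liver samples, 5 KO and 5 WT, was sequenced, and the authors deposited FPKM per gene and library, rounded to 2 decimals. The submitters' processing notes name build mm10 and the tools RSEM, STAR, DESeq, DESeq2 and R 4.0.2. No source used here gives their roles, the annotation release, filters or the strand setting. FPKM keeps no counts, so no count model was fitted, and an abundant transcript can shift all others in a library. Groups came from the sample titles.

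Depth was estimated by fitting, for short genes with 1 transcript, the number and length of fragments that turn low values into whole ones, and 93.6% to 96.6% of them then fell within 0.1 of a whole number. The test, for genes averaging 0.5 FPKM or more, was done with limma 3.58.1 in R 4.3.3 on log2(FPKM + 0.5) (trend, robust, two-sided, Benjamini-Hochberg over all 12395 genes, threshold 0.05). On that scale the change of a low gene is understated. The fit was tested on simulated data.

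Named by rule are all 43 members, Etnppl, the receptor, kinase and STAT list, and up to 3 genes of lowest p in each other pathway list, and 1 item is not reported here. Of the ligands, which the rule also covers, those at 0 throughout are counted. Single marker genes and the further GTPases were named after their values were seen. The members and lists were chosen with earlier results of these data known. Coordinates are from GENCODE M21 (GRCm38, the assembly behind mm10). Other settings tried were a pseudocount of 0.1 or 1, a minimum mean of 2 FPKM or none, median-of-ratios scaling, quantile normalization, the replicate number as a block, no trend or robust prior, and each library left out. Plots used matplotlib 3.10.9.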

Additional observations from a re-analysis of the deposited data

Results flagged for a closer look

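In 4 of the 86 groups of 5 libraries examined (43 members in 2 genotypes), 1 library lay far from the other 4 by Dixon's test, and chance alone flags about 1 group in 20. In KO replicate 3, Ifit2 was at 3.84 FPKM against 2.44 FPKM in the next KO library, Oas1g at 3.71 against 2.26 FPKM, and Ifi44 at 5.46 against 3.75 FPKM. In WT replicate 5, Igtp was at 68.21 FPKM against 38.66 FPKM in the next WT library. Ifit2, Oas1g and Ifi44 belong to the antiviral genes of which KO replicate 3 was often the highest library, and Igtp to the GTPases of which WT replicate 5 was.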

How the results depend on the processing

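No member passed in any of the 18 other settings (lowest adjusted p of 0.141 to 0.327 by limma), although a minimum mean of 2 FPKM left 41 members to test. The members' median log2 fold change stayed below 0 in all of them, from -0.19 to -0.035 with 1 library left out, and all 11 GTPase and antigen-processing genes were lower in each. At an unadjusted p under 0.05, 3 to 12 members were lower with 1 library left out (12 without KO replicate 3, 6 without WT replicate 1, 5 without WT replicate 4 or KO replicate 2) against 3 with all libraries, and 0 or 1 higher. With the replicate number as a block 5 were lower, and the lowest adjusted p was 0.212, for Irf1. Same-numbered samples did not all deviate together (correlations over genes of 0.12, -0.025, 0.066, 0.0013 and 0.204 for numbers 1 to 5). Pairs of different numbers ran from -0.218 to 0.157, so the value for number 5 was the highest of all pairs. These values do not settle whether same-numbered samples belong together, and the numbers were not taken to pair animals. Quantile normalization gave 1 higher member, Oasl1. Of the 43 members, 27 kept their sign throughout, and 16 did not.

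With median-of-ratios scaling and with quantile normalization, respectively, the log2 fold change turned positive for Stat2 (0.044 and 0.037), Irf9 (0.017 and 0.0015), Irf7 (0.049 and 0.045), Ifit3b (0.046 and 0.044), Oas2 (0.043 and 0.065), Oas3 (0.031 and 0.054), Oasl2 (0.027 and 0.031), Mx1 (0.030 and 0.048) and Xaf1 (0.047 and 0.040). Both scalings centre the median gene near 0. A pseudocount of 1 gave 0.0039 for Oas3 and 0.0016 for Xaf1. With 1 library left out, the log2 fold change ran from -0.041 to 0.036 for Stat2, -0.084 to 0.010 for Irf9, -0.098 to 0.084 for Irf7, -0.094 to 0.093 for Dhx58, -0.19 to 0.043 for Ifit1, -0.12 to 0.061 for Ifit3b, -0.21 to 0.045 for Isg15 and -0.031 to 0.16 for Usp18. It ran from -0.15 to 0.026 for Oas1a, -0.13 to 0.069 for Oas1g, -0.11 to 0.13 for Oas2, -0.15 to 0.12 for Oas3, -0.12 to 0.080 for Oasl2, -0.13 to 0.082 for Mx1, -0.18 to 0.24 for Xaf1 and -0.017 to 0.069 for Ifi35. The cause was not tested where a left-out library turned the sign.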

Other observations

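The members' spread was larger among KO than among WT libraries in 31 of 43 genes (72.1%, by the SD of log2(FPKM + 0.5)), beside 54.0% of all genes tested. The median SD of the members was 0.21 in WT and 0.26 in KO. Without KO replicate 3 the KO spread was the larger in 22 of 43 members (51.2%), beside 53.8% of all genes tested, and the members' median SD in KO was 0.21. That library was chosen after its high values in the members were seen, and leaving out such a library narrows their KO spread. The spread was not computed with a WT library left out.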
